A study of Mus musculus with 13 samples.

Results

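Sox4, Myb, Bcl11a, Satb1, Mef2a, Mef2c, Mef2d and Zeb2 are 8 transcription factors and chromatin proteins grouped here under lymphoid priming of bone marrow progenitors. They were taken by name as a set of lymphoid priming factors and make up 8 of the 24072 RefSeq identifiers counted in every library. All 8 had reads in each of the 13 libraries and passed the filter on low counts, which left 12722 genes for testing. RNA sequencing measured total RNA of CLP, common lymphoid progenitors of bone marrow from which lymphocytes arise, sorted by flow cytometry from wild-type C57BL/6 mice on the surface proteins Ly6D and Gfra2. There were 3 libraries of Ly6D+Gfra2+ cells (replicates 4, 5 and 6), 4 of Ly6D+Gfra2- cells (replicates 1, 2, 5 and 6) and 6 of Ly6D-Gfra2- cells (replicates 1 to 6). The age and sex of the mice, the pooling of animals and whether replicates came from separate mice are not given in the sources used here, so the p-values speak only of library-to-library spread, which may be technical. Each library's name begins with P or T, a prefix of unstated meaning. The P libraries are the first 2 of Ly6D+Gfra2- and the first 3 of Ly6D-Gfra2- (replicates 1 and 2, and replicates 1 to 3), and all others, with every Ly6D+Gfra2+ library, are T.

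Lymphoid priming is the low-level transcription of lymphocyte genes in progenitors that have not yet committed to a lineage. Ly6D marks the CLP that turn toward the B lineage, and the factors described here act before or around that step: Myb and Sox4 sustain early B-cell precursors, Satb1 organises chromatin of lymphoid genes, Bcl11a is required for B cells and plasmacytoid dendritic cells, the MEF2 proteins favour lymphoid over myeloid output, and Zeb2 is a repressor that acts in several blood lineages. These roles come from mouse genetics and are background to the measurements.

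The libraries held between 6892728 and 23705975 counts, so that 3 counts equal 0.133 to 0.389 CPM, the count scaled to the library size. The number of identifiers with at least 1 count was 11873, 10837 and 12369 in the Ly6D+Gfra2+ libraries, against 11636 to 13364 in Ly6D+Gfra2- and 12904 to 13969 in Ly6D-Gfra2-. Transcripts of Gfra2 lay between 286 and 514 CPM in Ly6D+Gfra2+, while the maximum was 14.7 CPM among Ly6D+Gfra2- libraries and 5.49 CPM among Ly6D-Gfra2- libraries. Transcripts of Ly6d lay between 171 and 283 CPM in Ly6D+Gfra2+, between 158 and 506 CPM in Ly6D+Gfra2- and between 0.622 and 8.29 CPM in 5 Ly6D-Gfra2- libraries, while 213 CPM were found in the library labelled Ly6D-Gfra2- replicate 3. Marker genes of other cells were summed per library. The 10 granulocyte and monocyte markers summed to 222 to 440.1 CPM in Ly6D+Gfra2+, 469.7 to 587 CPM in Ly6D+Gfra2- and 646 to 1420 CPM in Ly6D-Gfra2-. The 8 stem and multipotent progenitor markers summed to 357 to 445 CPM in Ly6D+Gfra2+, 348 to 979 CPM in Ly6D+Gfra2- and 505 to 1192 CPM in Ly6D-Gfra2-. Both Ly6D-Gfra2- minima, 646 and 505 CPM, came from the library labelled Ly6D-Gfra2- replicate 3, and the next lowest were 825 and 871 CPM. In every library the 10 T lineage markers summed to 164 CPM or less. The highest sum was 98.1 CPM for the 8 natural killer and innate lymphoid markers and 244 CPM for the 8 erythroid and megakaryocyte markers. Of the T lineage markers, Ptcra, Cd3e, Cd3g and Cd3d were at or near 0. Lck was expressed, its group means running from 63.8 CPM (Ly6D-Gfra2-) to 78.7 CPM (Ly6D+Gfra2-). Thy1 reached at most 28.0 CPM (a Ly6D+Gfra2- library) and Tcf7 at most 22.4 CPM (a Ly6D-Gfra2- library).

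All 8 factors were expressed in all 3 compartments, and 1 of them, Myb, passed the test in 1 of the 3 comparisons, a call that held in 14 of 23 alternatives. Myb rose in Ly6D+Gfra2+ cells against Ly6D-Gfra2- cells, and this was 1 of 8 factors called by the edgeR quasi-likelihood test at an adjusted p under 0.05, beside 1.39% of all 12722 genes called in either direction and 0.928% called higher in that comparison. The median log2 fold change of the 8 was 0.10, against 0.01 over all genes. No factor of the 8 had Ly6D+Gfra2+ and Ly6D-Gfra2- libraries that did not overlap, beside 10.2% of all genes. With DESeq2 the same comparison called 1 of the 8, again Myb, beside 6.23% of 15193 genes.

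Between Ly6D+Gfra2+ and Ly6D+Gfra2- cells edgeR called 0 of the 8, beside 0.409% of all genes, and the median log2 fold change was -0.14, against 0.03 over all genes. At an unadjusted p under 0.05 there were 2, Myb and Sox4, beside 13.2% of all genes. DESeq2 called 1 of the 8, Myb, beside 4.59% of all genes, and limma voom called 0. Sox4 and Mef2d were lower in Ly6D+Gfra2+ with no overlap of the libraries, which makes 2 of 8 beside 5.71% of all genes. None of the 8 was higher without overlap, beside 4% of all genes.

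Between Ly6D+Gfra2- and Ly6D-Gfra2- cells edgeR called 0 of the 8, and 0% of all genes, at a smallest adjusted p over all genes of 0.659. At an unadjusted p under 0.05 there were 599 genes, 4.71% of all, of which 2, Mef2d and Mef2a, were among the 8. DESeq2 called 49 genes and limma voom called 1, with 0 of the 8 in each. The median log2 fold change of the 8 was 0.09, against -0.01 over all genes, and 0 of the 8 had libraries that did not overlap, beside 1.53% of all genes. Since these are bulk libraries, fewer cells that express a factor and less RNA per cell cannot be told apart in any of these comparisons.

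**Figure D1:**
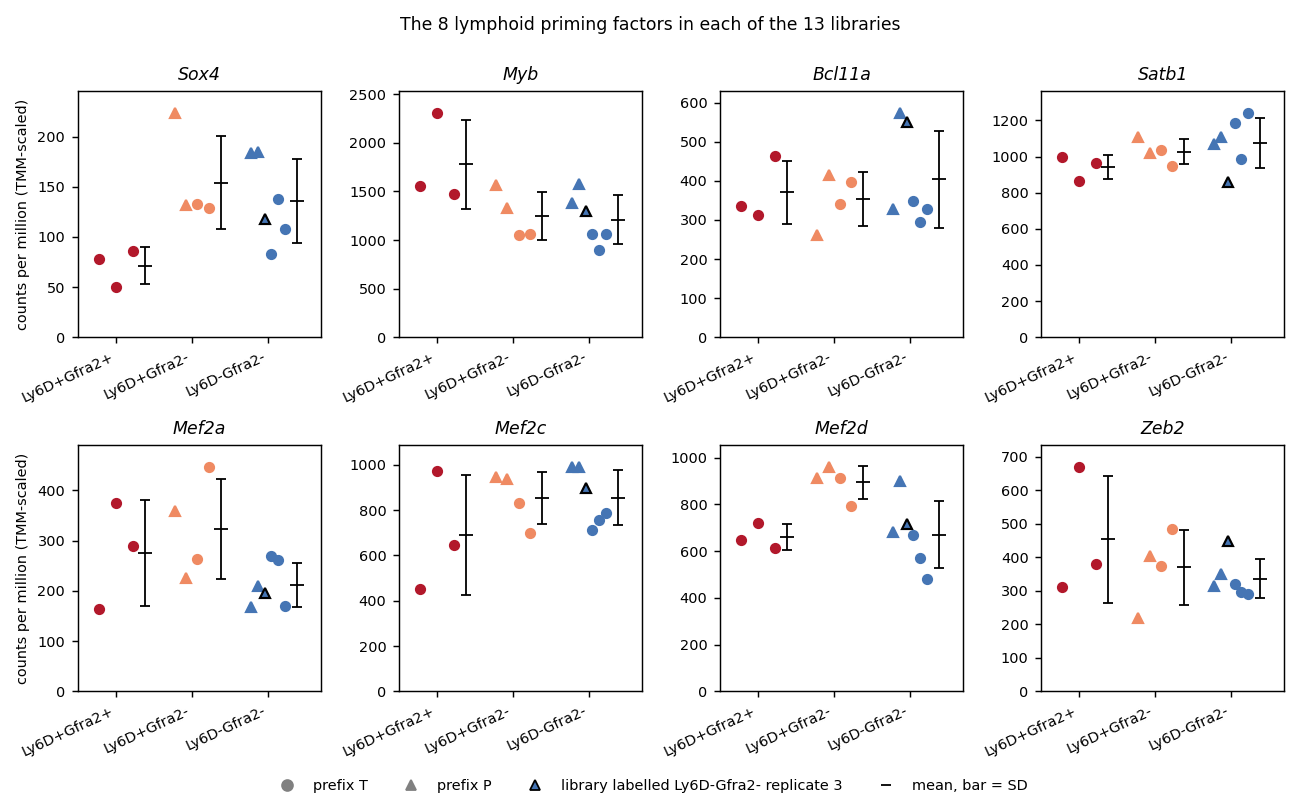
Level of each of the 8 factors in CPM of the TMM-scaled library size, with 1 point per library, circles for prefix T, triangles for prefix P (black-edged for the library labelled Ly6D-Gfra2- replicate 3), and a bar for the mean and SD of each group. Myb averages 1779 CPM in Ly6D+Gfra2+, with 1252 CPM for Ly6D+Gfra2- and 1211 CPM for Ly6D-Gfra2-, while Sox4 averages 71.2 CPM in Ly6D+Gfra2+, with 154 CPM for Ly6D+Gfra2- and 136 CPM for Ly6D-Gfra2-, and the other 6 factors overlap between groups apart from Mef2d between Ly6D+Gfra2+ and Ly6D+Gfra2-. The Ly6D+Gfra2+ means rest on prefix T alone, and those of the other groups on both prefixes.

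Myb (NM_001198914, chromosome 10, 21124930 to 21160984, build GRCm38.p6) encodes the c-Myb protein, which early B-cell precursors need for their survival. A window of 300 bases around its annotated start, ending 50 bases after it, is shown with that of Sox4, because these were the 2 factors with the largest differences from Ly6D+Gfra2+. Both come from RefSeq, on the minus strand of GRCm38.p6, written 5′ to 3′, and the capitals mark matches to the motifs given below.
Myb, chr10:21160935-21161234: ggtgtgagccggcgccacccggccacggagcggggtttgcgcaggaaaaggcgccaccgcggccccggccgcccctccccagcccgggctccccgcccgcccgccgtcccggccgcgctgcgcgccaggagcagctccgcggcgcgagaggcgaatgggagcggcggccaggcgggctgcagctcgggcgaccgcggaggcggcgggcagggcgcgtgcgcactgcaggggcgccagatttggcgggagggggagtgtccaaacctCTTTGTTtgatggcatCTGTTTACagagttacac
Sox4, chr13:28953650-28953949: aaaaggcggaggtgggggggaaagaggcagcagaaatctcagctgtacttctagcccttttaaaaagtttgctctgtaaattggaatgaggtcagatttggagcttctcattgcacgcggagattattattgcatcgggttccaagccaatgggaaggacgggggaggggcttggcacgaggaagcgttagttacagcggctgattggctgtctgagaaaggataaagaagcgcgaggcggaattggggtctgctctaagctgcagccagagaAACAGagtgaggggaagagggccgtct

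Motifs were searched on both strands of the first promoter that RefSeq lists for each of the 8 factors. They were AACNG for MYB, AACAAAG for SOX, CTANNNNTAG for MEF2, CACCTG for ZEB, TGACCA for BCL11A, and, for factors of the lymphoid programme, TCCCNNGGGA for EBF1, TGTGGT for RUNX and GTAAACA for FOXO. The Myb promoter held a SOX match beginning 16 bases after the start, a match held by 5.79% of 27025 genes' promoters. It also held overlapping MYB and FOXO matches beginning 32 and 33 bases after the start, held by 80.4% and 3.55% of promoters. The Sox4 promoter held 1 MYB match, 23 bases after the start. Base composition differed, with 75.0% G and C in the Myb promoter and 52.0% in that of Sox4. Elsewhere among the 8, Mef2a held a MEF2 match, present in 3.70% of promoters, and Satb1 held a ZEB match, present in 20.0%. MYB matches were also held by Satb1, Mef2a, Mef2c and Zeb2, and by neither Bcl11a nor Mef2d. The EBF1, RUNX and BCL11A letters, found in 0.914%, 16.9% and 13.6% of promoters, were in none of the 8 windows. A match describes these letters only and is no evidence of binding.

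Myb stood at 1553, 2307 and 1478 CPM in Ly6D+Gfra2+ cells, at 1568, 1328, 1052 and 1059 CPM in Ly6D+Gfra2-, and at 893, 1179 and 1578 CPM (lowest, median, highest) in Ly6D-Gfra2-. Ly6D+Gfra2+ replicate 5 was the highest of all libraries, but the highest library of each other group reached above the lower 2 Ly6D+Gfra2+ libraries. Mean levels were 1779 ± 458 CPM (SD, n = 3) in Ly6D+Gfra2+, 1252 ± 247 CPM (n = 4) in Ly6D+Gfra2- and 1211 ± 251 CPM (n = 6) in Ly6D-Gfra2-. Against Ly6D-Gfra2- the log2 fold change was 0.82 (SE 0.166; edgeR adjusted p = 0.0231), and against Ly6D+Gfra2- it was 0.77 (SE 0.178; edgeR adjusted p = 0.0716). Between the Gfra2-negative groups it was 0.05 (SE 0.139; edgeR adjusted p = 0.999), and the levels of these neighbours in the order did not differ beyond their spread.

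The prefix moved with Myb. The term for prefix T against prefix P in the same fit was -0.48 on the log2 scale (edgeR adjusted p = 0.281). In Ly6D-Gfra2- the T libraries lay between 893 and 1064 CPM and the P libraries between 1294 and 1578 CPM. Within prefix T the Ly6D+Gfra2+ libraries were all above the Ly6D-Gfra2- libraries, as in 7.22% of genes, and all above the Ly6D+Gfra2- libraries, as in 8.66% of genes. The log2 fold changes within prefix T, 0.82 against Ly6D-Gfra2- and 0.74 against Ly6D+Gfra2-, stood beside 0.82 and 0.77 with all libraries, at edgeR adjusted p-values of 0.113 and 0.3197. The call against Ly6D-Gfra2- was lost without Ly6D+Gfra2+ replicate 5 (log2 fold change 0.58; edgeR adjusted p = 0.0862), which had the fewest identifiers with a count, without Ly6D-Gfra2- replicate 4, 5 or 6, without the prefix term, with the 2 groups alone, with library size alone and with a replicate block in place of the prefix (0.79; edgeR adjusted p = 0.0719). It held without the library labelled Ly6D-Gfra2- replicate 3 (0.81; edgeR adjusted p = 0.0320).

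**Figure D2:**
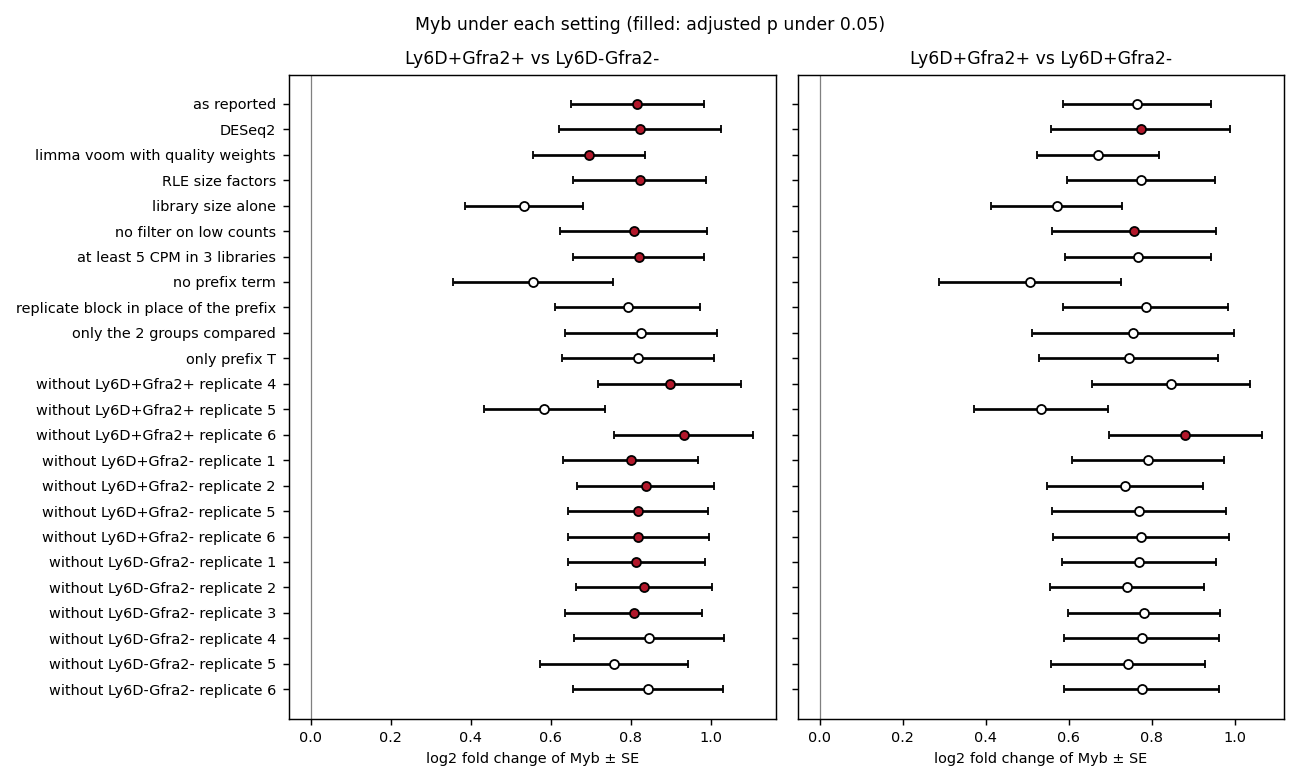
Log2 fold change of Myb with its SE under each setting, for Ly6D+Gfra2+ against Ly6D-Gfra2- (left) and against Ly6D+Gfra2- (right), with filled points where the adjusted p was under 0.05. All values are above 0, from 0.53 to 0.93 on the left, where 14 of 23 alternatives passed, and from 0.51 to 0.88 on the right, where 3 of 23 passed.

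Markers of B-lineage cells moved with Myb. The 10 B lineage markers summed to 3212 to 3577 CPM in Ly6D+Gfra2+, 594 to 1013 CPM in Ly6D+Gfra2- and 303 to 1035 CPM in Ly6D-Gfra2-. The 1035 CPM came from the library labelled Ly6D-Gfra2- replicate 3, and the next highest of that group had 840 CPM. All 10 markers were detected in each Ly6D+Gfra2+ library, against 8 to 10 in Ly6D+Gfra2- and 6 to 9 in Ly6D-Gfra2-. When Ly6D+Gfra2+ was set against Ly6D-Gfra2-, 7 of the 10 passed as higher, beside 0.928% of all genes. The part of these markers, and that of the low number of detected identifiers, in the Myb difference was not tested.

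Sox4 (NM_009238, chromosome 13, 28948919 to 28953699) encodes a high-mobility-group transcription factor that pro-B cells need for their survival. Its level was 77.6, 50.3 and 85.6 CPM in Ly6D+Gfra2+ cells, 224, 132, 133 and 129 CPM in Ly6D+Gfra2-, and 82.6, 128 and 185 CPM (lowest, median, highest) in Ly6D-Gfra2-. All Ly6D+Gfra2+ libraries were below all Ly6D+Gfra2- libraries, and 1 of them reached above the lowest Ly6D-Gfra2- library. Group means were 71.2 ± 18.5 CPM (SD, n = 3) in Ly6D+Gfra2+, 154 ± 46.4 CPM (n = 4) in Ly6D+Gfra2- and 136 ± 41.5 CPM (n = 6) in Ly6D-Gfra2-. Within prefix T, which holds every Ly6D+Gfra2+ library, the means were 131 CPM (n = 2) in Ly6D+Gfra2- and 110 CPM (n = 3) in Ly6D-Gfra2-. The term for prefix T against prefix P was -0.52 for Sox4 (edgeR adjusted p = 0.677). The log2 fold change was -0.84 against Ly6D+Gfra2- (SE 0.333; edgeR adjusted p = 0.289) and -0.65 against Ly6D-Gfra2- (SE 0.316; edgeR adjusted p = 0.341), so neither difference passed over all genes. It stayed between -1.11 and -0.64 against Ly6D+Gfra2- over 23 alternatives, with a smallest adjusted p of 0.124.

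Over its paired transcript of 4795 bases in GENCODE M21, the Sox4 level per kilobase was the lowest of the 8 factors in each group, at 14.8 CPM per kb in Ly6D+Gfra2+, 32.1 CPM per kb in Ly6D+Gfra2- and 28.3 CPM per kb in Ly6D-Gfra2-. Between Ly6D+Gfra2+ and Ly6D+Gfra2-, markers of dendritic cells moved in the same direction as Sox4 and Mef2d. Their 10 genes, with Batf3 at 0 in all libraries, summed to 1859 to 2372 CPM in Ly6D+Gfra2+, 4340.0 to 5313 CPM in Ly6D+Gfra2- and 2637 to 4997 CPM in Ly6D-Gfra2-. The 4997 CPM came from the library labelled Ly6D-Gfra2- replicate 3, and the next highest of that group had 3325 CPM. Of the 9 tested, 1, Runx2, was called lower in Ly6D+Gfra2+ than in Ly6D+Gfra2-, beside 0.204% of all genes, and 6 were lower without overlap, beside 5.71% of all genes. Their part in the Sox4 and Mef2d differences was not tested.

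Mef2a, Mef2c and Mef2d are MADS-box factors that share a DNA-binding domain at the start of the protein. They belong to the same gene family, so the first 90 coding bases of the transcripts paired with the counted identifiers are shown to let the likeness be seen. The sequences are from GENCODE M21 on GRCm38, 5′ to 3′, with bases shared by all 3 in capitals; the coding bases of each lie on more than 1 exon within the interval given.
Mef2a, minus strand, chr7:67295543-67316845: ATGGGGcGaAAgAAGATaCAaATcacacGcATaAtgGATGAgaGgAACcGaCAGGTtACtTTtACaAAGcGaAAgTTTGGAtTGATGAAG
Mef2c, plus strand, chr13:83575677-83592813: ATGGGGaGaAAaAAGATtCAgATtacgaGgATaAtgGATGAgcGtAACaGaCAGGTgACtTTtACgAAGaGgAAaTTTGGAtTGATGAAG
Mef2d, plus strand, chr3:88155809-88156357: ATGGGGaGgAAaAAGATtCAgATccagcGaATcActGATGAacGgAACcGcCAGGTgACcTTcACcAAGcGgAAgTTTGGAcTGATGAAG
Of these 90 bases 63 were the same in all 3, 74 between Mef2a and Mef2c, 69 between Mef2a and Mef2d and 71 between Mef2c and Mef2d. Over the whole transcripts the longest stretch without a difference was 17 bases between Mef2a and Mef2c, 13 between Mef2a and Mef2d and 28 between Mef2c and Mef2d. The read length and the handling of reads that fit more than 1 place are not given in the sources used here.

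Mef2d (NM_133665, chromosome 3, 88141941 to 88172091) works with Mef2c in early B-cell development. It was at 648, 720.1 and 611 CPM in Ly6D+Gfra2+, at 911, 959, 913 and 792 CPM in Ly6D+Gfra2-, and at 481, 675 and 902 CPM (lowest, median, highest) in Ly6D-Gfra2-. The Ly6D+Gfra2- libraries stood above all Ly6D+Gfra2+ libraries, and 1 library of Ly6D-Gfra2- reached into their range. Its log2 fold change was -0.29 between Ly6D+Gfra2+ and Ly6D+Gfra2- (SE 0.184; edgeR adjusted p = 0.534) and 0.43 between Ly6D+Gfra2- and Ly6D-Gfra2- (SE 0.144; edgeR adjusted p = 0.807). Mean levels were 659.8 ± 55.4 CPM (SD, n = 3) for Ly6D+Gfra2+ and, for Ly6D-Gfra2-, 669.9 ± 142.5 CPM (n = 6), with a log2 fold change of 0.14 (SE 0.175; edgeR adjusted p = 0.765) that did not pass.

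Mef2a (NM_001291196, chromosome 7, 67231163 to 67376456) is the MEF2 member found in most tissues. It stood at 165, 374 and 289 CPM in Ly6D+Gfra2+, at 359.6, 225, 264 and 446 CPM in Ly6D+Gfra2-, and at 167, 202 and 269.9 CPM (lowest, median, highest) in Ly6D-Gfra2-. The libraries of all groups overlapped, and replicates of Ly6D+Gfra2+ spanned more than those of Ly6D-Gfra2-. Ly6D+Gfra2- against Ly6D-Gfra2- gave a log2 fold change of 0.61 (SE 0.244; edgeR adjusted p = 0.988), within prefix T 0.61 and within prefix P 0.62. Ly6D+Gfra2+ against Ly6D-Gfra2- gave 0.24 (SE 0.295; edgeR adjusted p = 0.766), and against Ly6D+Gfra2- -0.37 (SE 0.317; edgeR adjusted p = 0.666).

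Mef2c (NM_001170537, chromosome 13, 83504017 to 83667079) is the MEF2 member that steers progenitors to lymphoid rather than myeloid output. The Ly6D+Gfra2+ libraries had 451, 974 and 648 CPM, those of Ly6D+Gfra2- had 948, 938, 829.9 and 699 CPM, and Ly6D-Gfra2- spanned 713, 843 and 989.8 CPM (lowest, median, highest). Ly6D+Gfra2+ replicate 4 was the lowest of all 13 libraries, and replicate 5 of the same group was among the highest. The log2 fold change was -0.13 against either other group (SE 0.219 against Ly6D+Gfra2- and 0.206 against Ly6D-Gfra2-), and -0.00055 between the Gfra2-negative groups (SE 0.171), with edgeR adjusted p-values of 0.853, 0.834 and 0.999. Without Ly6D+Gfra2+ replicate 5 it was -0.46 against each, and without replicate 4 it was 0.09 against each, so 1 library set the direction.

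**Figure D3:**
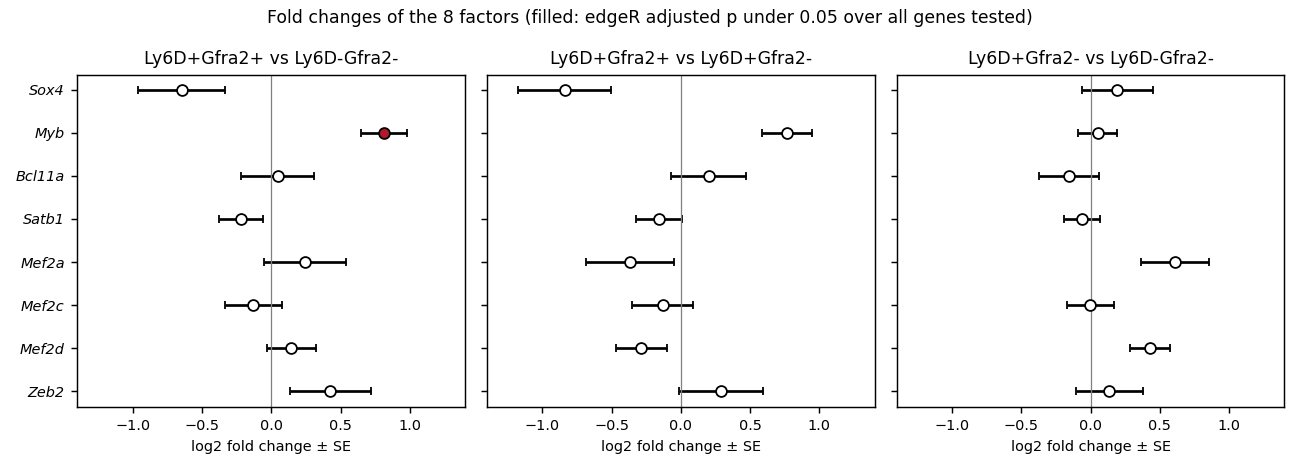
Log2 fold change with its SE for each of the 8 factors in the 3 comparisons, filled where the edgeR adjusted p over all genes was under 0.05. The 1 filled point is Myb at 0.82 in Ly6D+Gfra2+ against Ly6D-Gfra2-, Sox4 lies lowest at -0.84 and -0.65 in the comparisons of Ly6D+Gfra2+, and the right panel stays between -0.16 and 0.61.

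Satb1 (NM_001163630, chromosome 17, 51736187 to 51833290) folds chromatin into loops and is needed in progenitors for lymphocyte output. Replicates read 999, 867 and 963 CPM in Ly6D+Gfra2+ and 1109, 1017, 1038 and 947 CPM for Ly6D+Gfra2-, and 859, 1088 and 1241 CPM (lowest, median, highest) in Ly6D-Gfra2-. It was the steadiest of the 8, with an SD of log2 CPM over the 13 libraries of 0.158, against 0.299 to 0.588 for the others, and all groups overlapped. Log2 fold changes were -0.22 (SE 0.156) for Ly6D+Gfra2+ against Ly6D-Gfra2-, -0.16 (SE 0.168) against Ly6D+Gfra2- and -0.06 (SE 0.130) between the Gfra2-negative groups, with edgeR adjusted p-values of 0.546, 0.7499 and 0.999.

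Bcl11a (NM_001242934, chromosome 11, 24076564 to 24173558) is a zinc-finger factor without which B cells fail to form. It was found at 336, 313 and 463 CPM in Ly6D+Gfra2+, at 261, 415, 342 and 397 CPM in Ly6D+Gfra2-, and at 294, 338 and 574 CPM (lowest, median, highest) in Ly6D-Gfra2-. The highest pair were P libraries of Ly6D-Gfra2-, replicates 2 and 3, and the ranges of all groups overlapped. The log2 fold change of Ly6D+Gfra2+ cells was 0.05 (SE 0.263; edgeR adjusted p = 0.961) against Ly6D-Gfra2- and 0.20 (SE 0.271; edgeR adjusted p = 0.805) against Ly6D+Gfra2-. Between Ly6D+Gfra2- and Ly6D-Gfra2- it was -0.16 (SE 0.218; edgeR adjusted p = 0.999), with 0.20 within prefix T and -0.52 within prefix P. The difference between the prefixes was 0.71 (SE 0.373; edgeR adjusted p = 0.712) and did not pass.

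Zeb2 (NM_015753, chromosome 2, 44983512 to 45117442) is a zinc-finger and homeodomain repressor used by dendritic, natural killer and myeloid cells. It had 311, 669 and 379.9 CPM in Ly6D+Gfra2+ libraries, 219, 404, 373 and 483 CPM among those of Ly6D+Gfra2-, and 289.9, 316 and 448 CPM (lowest, median, highest) in Ly6D-Gfra2-. Ly6D+Gfra2+ replicate 5 was the highest library and Ly6D+Gfra2- replicate 1 the lowest, with all groups overlapping. The log2 fold change of Ly6D+Gfra2+ was 0.43 (SE 0.295; edgeR adjusted p = 0.531) against Ly6D-Gfra2- and 0.29 (SE 0.303; edgeR adjusted p = 0.742) against Ly6D+Gfra2-, and without replicate 5 these were 0.03 and -0.10. Between Ly6D+Gfra2- and Ly6D-Gfra2- it was 0.14 (SE 0.243; edgeR adjusted p = 0.999), with 0.50 within prefix T and -0.25 within prefix P. That difference between the prefixes, 0.75 (SE 0.373; edgeR adjusted p = 0.698), did not pass either, and for this test 0 of 12140 genes were called with edgeR while 872 had an unadjusted p under 0.05. The antisense RNA Zeb2os, which overlaps Zeb2, was between 0 and 13.5 CPM, and strand use in counting is not given in the sources used here.

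Ly6D+Gfra2+ replicate 5 was the highest library of its group for Myb, Mef2a, Mef2c, Mef2d and Zeb2, 5 of the 8. For Sox4, Bcl11a and Satb1 it was the lowest. In a group of 3 any library is often highest or lowest, and the share over all genes was not counted. Replicate 5 had 10837 identifiers with a count, the fewest of the 13 libraries, and a TMM factor of 0.856, the lowest of the 13. The part of these features in its levels was not tested.

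Levels were compared between factors only per length. Per kilobase of the paired transcript, the level in Ly6D+Gfra2+ was 482 CPM per kb for Myb, 241 for Mef2c, 157 for Satb1, 122 for Mef2d, 80.6 for Zeb2, 61.8 for Bcl11a, 58.0 for Mef2a and 14.8 for Sox4. In Ly6D-Gfra2- it was 328 CPM per kb for Myb, 299 for Mef2c, 179 for Satb1 and 124 for Mef2d. The level of Mef2c depends on the transcript used, 2862 bases as paired or 6277 bases for the longest coding transcript, and with the longest the level in Ly6D+Gfra2+ was 110.1 CPM per kb, below Satb1 at 151 and Mef2d at 122. The level of Zeb2 became 49.7 CPM per kb with its longest transcript of 9124 bases. Myb stayed highest and Sox4 lowest with either length.

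The closest relatives of the factors were measured as well, as 8 paralogs from a list chosen by family. Of the 8, 0 were called by edgeR in any of the 3 comparisons, and 3, Sox11, Bcl11b and Mef2b, did not pass the filter. Sox11 had 0 counts in all 13 libraries, Bcl11b, which marks T-cell commitment, reached at most 0.259 CPM and Mef2b, known from germinal centre B cells, at most 0.541 CPM. The other members of their families, Sox4, Bcl11a and the 3 MEF2 factors above, were at 50.3 CPM or more in every library.

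Zeb1, the relative of Zeb2 needed for T-cell development, was at 218, 246 and 154 CPM in Ly6D+Gfra2+, at 128, 129, 90.4 and 83.9 CPM in Ly6D+Gfra2-, and at 99.8, 134 and 171 CPM (lowest, median, highest) in Ly6D-Gfra2-. All Ly6D+Gfra2+ libraries were above all Ly6D+Gfra2- libraries, as in 4% of genes. The means were 206 ± 47.2 CPM (SD, n = 3) in Ly6D+Gfra2+, 108 ± 24.0 CPM (n = 4) in Ly6D+Gfra2- and 136 ± 23.6 CPM (n = 6) in Ly6D-Gfra2-. Its log2 fold change was 1.18 against Ly6D+Gfra2- (SE 0.275; edgeR adjusted p = 0.0739) and 0.83 against Ly6D-Gfra2- (SE 0.252; edgeR adjusted p = 0.1201). Each of the 2 comparisons passed in 2 of 23 alternatives. The first was DESeq2, with adjusted p-values of 0.000146 and 0.00699, which called 4.59% and 6.23% of all genes. The other was edgeR without Ly6D+Gfra2+ replicate 6 (adjusted p = 0.0302 and 0.0497). The difference between Zeb1 and Zeb2 was not tested.

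Mybl2, a relative of Myb used in dividing cells, was at 79.2, 40.3 and 25.7 CPM in Ly6D+Gfra2+, at 166, 78.2, 39.5 and 29.3 CPM in Ly6D+Gfra2-, and at 16.6, 24.1 and 44.1 CPM (lowest, median, highest) in Ly6D-Gfra2-. Mybl1, the relative known from testis, was at 9.04, 0.359 and 4.44 CPM in Ly6D+Gfra2+. These were below all Ly6D+Gfra2- libraries, as in 5.71% of all genes. Ly6D+Gfra2- libraries had 15.2, 16.2, 10.1 and 19.8 CPM, and Ly6D-Gfra2- had 2.98, 15.7 and 18.8 CPM (lowest, median, highest). Neither Mybl2 nor Mybl1 passed in any comparison, the smallest adjusted p with edgeR being 0.359 for Mybl2 and 0.482 for Mybl1. Sox12 averaged 36.6 ± 31.9 CPM (SD, n = 3) in Ly6D+Gfra2+, 27.7 ± 19.6 CPM (n = 4) in Ly6D+Gfra2- and 27.5 ± 15.8 CPM (n = 6) in Ly6D-Gfra2-.

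**Figure D4:**
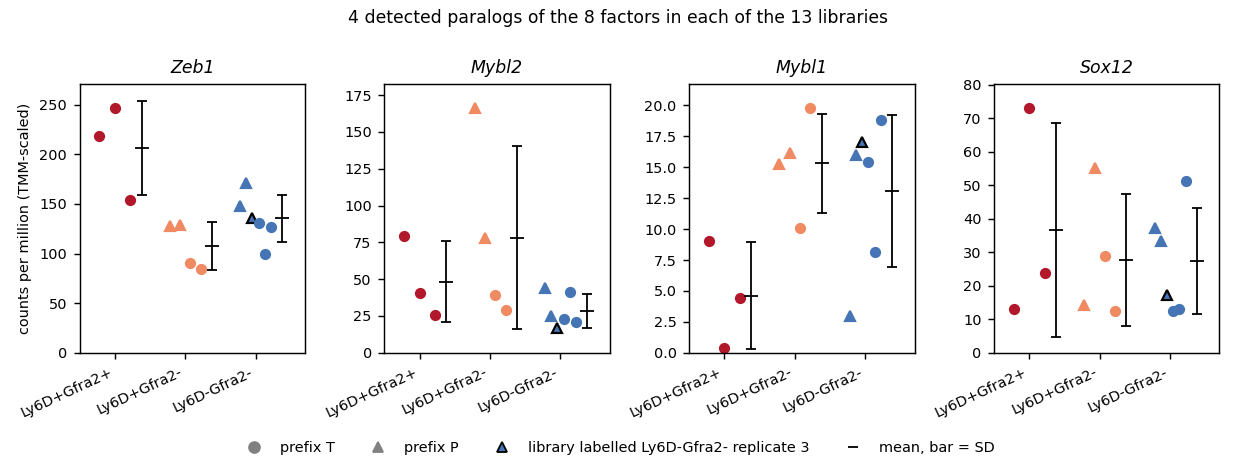
Level of 4 detected paralogs in CPM, 1 point per library, with circles for prefix T, triangles for prefix P (black-edged for the library labelled Ly6D-Gfra2- replicate 3) and bars for the mean and SD of each group. Zeb1 in Ly6D+Gfra2+, at 154 to 246 CPM, lies above all Ly6D+Gfra2- libraries, and the groups overlap for Mybl2 and Sox12.

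Partners of the factors were read as 4 lists chosen by function. Of 12 MEF2 regulators (class IIa histone deacetylases, kinases, calcineurin subunits and corepressors), 0 were called with edgeR in the 3 comparisons. With an unadjusted p under 0.05 there were 3 in Ly6D+Gfra2+ against Ly6D-Gfra2-, beside 15.4% of all genes: Hdac7, Camk2d and Hdac5, with log2 fold changes of 0.76 (SE 0.238; edgeR adjusted p = 0.135), 1.13 (SE 0.446; edgeR adjusted p = 0.241) and -2.72 (SE 1.08; edgeR adjusted p = 0.242). Hdac7, a class IIa deacetylase known in mouse pro-B cells as a MEF2C partner, averaged 318 ± 55.0 CPM (SD, n = 3) among Ly6D+Gfra2+ libraries and 187 ± 28.8 CPM (n = 6) among Ly6D-Gfra2- libraries. These libraries did not overlap, beside 10.2% of all genes in either direction. Between Ly6D+Gfra2+ and Ly6D+Gfra2- there were 4 regulators with an unadjusted p under 0.05, beside 13.2% of all genes, among them Hdac5 at -3.53 and Mapk7 at -1.404, both lower in Ly6D+Gfra2+, and Camk2d at 0.98, higher. Hdac5 ranged from 0 to 12.4 CPM in Ly6D+Gfra2+ and from 17.3 to 294 CPM in Ly6D+Gfra2-, with the highest value in replicate 2. Between the Gfra2-negative groups there were 0. The medians were -0.03, -0.12 and 0.21 for Ly6D+Gfra2+ against Ly6D-Gfra2-, Ly6D+Gfra2+ against Ly6D+Gfra2- and Ly6D+Gfra2- against Ly6D-Gfra2-.

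Of 10 MYB coactivators and partners, 0 were called with edgeR in any comparison, and the list's median log2 fold change was 0.39 for Ly6D+Gfra2+ against Ly6D-Gfra2- (0.01 over all genes), 0.22 against Ly6D+Gfra2- (0.03 over all genes) and 0.10 between the Gfra2-negative groups (-0.01 over all genes). Unadjusted p-values under 0.05 numbered 2 and 3 in the comparisons against Ly6D-Gfra2- and Ly6D+Gfra2-, beside 15.4% and 13.2% of all genes, and 0 between the Gfra2-negative groups. Kmt2a, a histone methyltransferase that acts with MYB through a shared complex, had the smallest p in both comparisons of Ly6D+Gfra2+. It averaged 2229 ± 509.9 CPM (SD, n = 3) in Ly6D+Gfra2+, 1235 ± 272 CPM (n = 4) in Ly6D+Gfra2- and 1200.1 ± 321 CPM (n = 6) in Ly6D-Gfra2-. Kmt2a was higher without overlap against Ly6D+Gfra2-, beside 4% of all genes. It also had no overlap against Ly6D-Gfra2-, beside 10.2% of all genes in either direction. Its log2 fold changes of 0.65 (SE 0.180; edgeR adjusted p = 0.0904) and 0.58 (SE 0.196; edgeR adjusted p = 0.216) did not pass. The coactivators Crebbp and Ep300, which bind the MYB activation domain, had log2 fold changes of 0.07 and 0.17 in Ly6D+Gfra2+ against Ly6D-Gfra2-. Psip1, which tethers the same complex to chromatin, averaged 217 ± 54.5 CPM (SD, n = 3) in Ly6D+Gfra2+, 151 ± 19.0 CPM (n = 4) in Ly6D+Gfra2- and 157 ± 21.1 CPM (n = 6) in Ly6D-Gfra2-, and did not pass either (edgeR adjusted p = 0.285 against Ly6D+Gfra2- and 0.247 against Ly6D-Gfra2-). Tab1, which had the next smallest p, ranged from 0 to 277 CPM over the Ly6D+Gfra2+ libraries, and its log2 fold change against Ly6D-Gfra2- lay between -2.31 and 3.15 over 23 alternatives.

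Among 16 corepressors, subunits of the NuRD complex and partners of ZEB, BCL11A and SATB1, 1 was called. This was in Ly6D+Gfra2+ against Ly6D-Gfra2-, where 1.39% of all genes were called. Mta3, a NuRD subunit used in the B lineage, averaged 746 ± 141 CPM (SD, n = 3) in Ly6D+Gfra2+, 449 ± 113 CPM (n = 4) in Ly6D+Gfra2- and 308 ± 47.8 CPM (n = 6) in Ly6D-Gfra2-. It rose in Ly6D+Gfra2+ against Ly6D-Gfra2- with a log2 fold change of 1.46 (SE 0.202; edgeR adjusted p = 0.00173), and it passed in all 23 alternatives run for it. Against Ly6D+Gfra2- it had 0.92 (SE 0.218; edgeR adjusted p = 0.0784), and Ly6D+Gfra2- against Ly6D-Gfra2- gave 0.54 (SE 0.168; edgeR adjusted p = 0.807). The other 15 did not pass, and the list's medians were 0.11 in Ly6D+Gfra2+ against Ly6D-Gfra2-, 0.10 in Ly6D+Gfra2+ against Ly6D+Gfra2- and -0.0048 in Ly6D+Gfra2- against Ly6D-Gfra2-.

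Of 20 genes of the lymphoid programme that these factors act beside, 5 rose and 1 fell in Ly6D+Gfra2+ against Ly6D-Gfra2-. Over all genes 1.39% were called in either direction and 0.928% were called higher. The receptor gene Il7r, the recombinase genes Rag1 and Rag2 and the B-lineage factors Ebf1 and Foxo1 rose, by log2 fold changes of 1.19, 4.03, 1.19, 4.66 and 2.97, while the survival gene Bcl2 fell, at -2.00. Against Ly6D+Gfra2- there were 2 higher, Rag1 at 2.98 and Foxo1 at 1.82, and 1 lower, Bcl2 at -2.32, beside 0.409% of all genes. Between the Gfra2-negative groups there were 0 with edgeR and 4 at an unadjusted p under 0.05, beside 4.71% of all genes. Over 25 alternatives for these groups 0 to 3 were called, with Ebf1 passing in 3, Rag1 in 2 and Foxo1 in 1. The Myb difference of 0.82 was smaller in size than those of these 6 genes. The list's median was 0.19 against Ly6D-Gfra2- and 0.01 against Ly6D+Gfra2-. Ly6D+Gfra2- against Ly6D-Gfra2- had a median of 0.29. Against Ly6D-Gfra2- Rag2 passed in 9 of 23 alternatives, and Rag1 and Foxo1 passed in all 23. Against Ly6D+Gfra2- Rag1 passed in all 23 and Foxo1 in 8 of 23, with edgeR adjusted p = 0.0471 as reported and adjusted p-values up to 0.5101 among the alternatives.

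**Figure D5:**
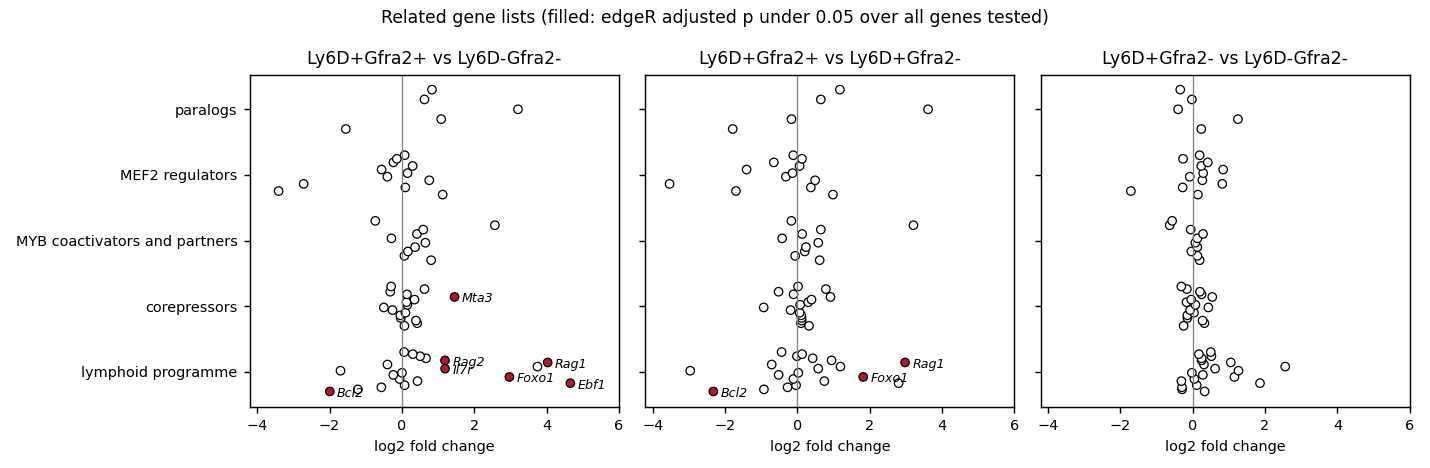
Log2 fold change of each tested gene of 5 lists in the 3 comparisons, 1 point per gene, filled and named where the edgeR adjusted p over all genes was under 0.05. The named genes are Mta3 among the corepressors and Il7r, Rag1, Rag2, Ebf1, Foxo1 and Bcl2 in the lymphoid programme, and 0 genes are filled among the paralogs, MEF2 regulators and MYB partners or in the right panel.

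For each factor the genes with the most similar pattern were found over the 13 libraries among 10412 genes averaging 5 CPM or more, as the smallest root mean square difference of log2 CPM after centring each gene. Myb was nearest to Runx1 (0.167), against an SD of its own of 0.364. Sox4 was nearest to Sema4d (0.244) and Api5 (0.253), against an SD of 0.588. Bcl11a was nearest to Prrc2c and Anp32e, Mef2a to Creb1 and Cdk17, Mef2c to Nxpe3 and Macroh2a1, Mef2d to Copa and Vcpip1, and Zeb2 to Pdpk1 and Uba2, with differences between 0.172 and 0.306. For Satb1, nearest to Thrap3 (0.157) and Trim44 (0.169), the difference was about as large as its own SD of 0.158, so these are no closer to it than a gene without change would be. None of the 8 was among the 2 nearest genes of another.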

How the data were processed

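Raw read counts per RefSeq identifier were deposited by the authors, 1 table per library, under the column name RawCount per the file headers. The submitters' processing notes name FastQC, HISAT, TopHat, HOMER, DESeq and build mm10, and the roles, versions, annotation release and strand setting are not given in the sources used here. Symbols came from RefSeq for 23815 identifiers and GENCODE for 144, with 113 unnamed.

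Genes passing filterByExpr (minimum count 10, minimum total 15) were fitted over all 13 libraries with edgeR 4.0.16 in R 4.3.3 (TMM scaling, quasi-likelihood, group and prefix as terms), with Benjamini-Hochberg adjustment over 12722 genes and a threshold of 0.05. CPM refers to the TMM-scaled library size, and log2 CPM used a prior count of 2. The procedure was tested on simulated data, with changes larger than those of the lymphoid priming factors. It therefore cannot show how often changes of their size are missed. The comparisons share libraries. Alternatives were DESeq2 1.42.0, limma 3.58.1 with voom and quality weights, RLE scaling, library size alone, no filter, at least 5 CPM in 3 libraries, no prefix term, a replicate block, fewer groups, single prefixes and leaving out each library. A fit of the P libraries that leaves out Ly6D-Gfra2- replicate 3 was added after the data were seen.

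The 8 factors and all lists, among them the markers of B lineage, dendritic, granulocyte and monocyte, T lineage, natural killer, erythroid and stem cells, were chosen with earlier results of these data known. Named genes were the 8 factors, the sort markers, detected paralogs, called genes of each list or up to 3 with the smallest p, and the 2 nearest genes of each factor. Crebbp, Ep300 and the marker genes named singly fall outside this rule or were chosen after their values were seen. A few genes within this rule are left out of the text.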

Additional observations from a re-analysis of the deposited data

Results flagged for a closer look

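Among 50 pairs of a gene and a group of 4 or 6 libraries, 5 values stood farther from the rest of their group than Dixon's 95% limit, a limit that chance passes in about 1 group in 20. Sox4 in Ly6D+Gfra2- replicate 1 was 223.6 CPM, with the other 3 libraries of that group between 129 and 133 CPM. Without that library the Sox4 log2 fold change against Ly6D-Gfra2- was 0.05, and that of Ly6D+Gfra2+ against Ly6D+Gfra2- was -0.76. Hdac5, a class IIa deacetylase that represses MEF2, was 294 CPM in Ly6D+Gfra2- replicate 2, against a group mean of 95.7 ± 133 CPM (SD, n = 4). The library labelled Ly6D-Gfra2- replicate 3 held the other 3 values, Ly6d at 213 CPM, Rag1 at 221.7 CPM and Ebf1 at 126.9 CPM.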

How the results depend on the processing

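Of the 8 factors, the number called between Ly6D+Gfra2+ and Ly6D-Gfra2- fell to 0 with library size alone, without the prefix term, with the 2 groups alone and in prefix T, and ranged from 0 to 1 when each library was left out. Between Ly6D+Gfra2+ and Ly6D+Gfra2- it became 1 with DESeq2 and without a filter, and ranged from 0 to 1 when each library was left out. Between Ly6D+Gfra2- and Ly6D-Gfra2- it was 0 in all 25 alternatives. The cause of these changes was not tested. Deviations of same-numbered libraries had correlations between -0.0548 and 0.0383. These were taken from the mean of only 2 or 3 libraries of a group and prefix, so they cannot show that pairing is absent. With a replicate block in place of the prefix Myb had 0.79 (edgeR adjusted p = 0.0719), so that 0 factors were called against Ly6D-Gfra2-.

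Signs that changed were all of log2 fold changes that had not passed. With library size alone, which moved the median of all genes to -0.25 in Ly6D+Gfra2+ against Ly6D-Gfra2- and to -0.15 against Ly6D+Gfra2-, Bcl11a was -0.20, Mef2a -0.039 and Mef2d -0.12 in the first of these, and Myb was -0.038 in Ly6D+Gfra2- against Ly6D-Gfra2-. Without the prefix term Bcl11a was -0.13 and Mef2d -0.022 in Ly6D+Gfra2+ against Ly6D-Gfra2-. In prefix T Bcl11a was 0.20 and Mef2c 0.027 in Ly6D+Gfra2- against Ly6D-Gfra2-, and Bcl11a was -0.0035 in Ly6D+Gfra2+ against Ly6D+Gfra2-. In prefix P Satb1 was 0.071 and Zeb2 -0.25 in Ly6D+Gfra2- against Ly6D-Gfra2-. In the fit of the P libraries that leaves out Ly6D-Gfra2- replicate 3, Sox4 was -0.059, Myb -0.033 and Zeb2 -0.091 in that comparison. When each library was left out of the whole fit, Sox4 stayed at 0.049 or above and Myb at 0.0083 or above there. Leaving out each library gave, in Ly6D+Gfra2+ against Ly6D-Gfra2-, -0.15 to 0.15 for Bcl11a, -0.040 to 0.50 for Mef2a and -0.46 to 0.091 for Mef2c. In Ly6D+Gfra2+ against Ly6D+Gfra2- it gave -0.46 to 0.093 for Mef2c and -0.10 to 0.52 for Zeb2, and in Ly6D+Gfra2- against Ly6D-Gfra2- -0.28 to 0.038 for Bcl11a, -0.055 to 0.040 for Mef2c and -0.029 to 0.36 for Zeb2.

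Over all genes, 177 calls for Ly6D+Gfra2+ against Ly6D-Gfra2- became 947 with DESeq2, 107 with voom, 318 without a filter, 111 with library size alone (45 higher, beside 118 of 177), 92 with the block, 72 with the 2 groups alone, 62 in prefix T and 49 to 372 when each library was left out. The 52 calls for Ly6D+Gfra2+ against Ly6D+Gfra2- became 698, 23, 164, 48 (15 higher, beside 26 of 52), 25, 8, 9 and 12 to 184 under the same alternatives, and 103 without the prefix term. The 0 calls for Ly6D+Gfra2- against Ly6D-Gfra2- became 49 with DESeq2, 1 with voom, 9 without a filter, 8 with the block and 1 in prefix T. They ranged from 0 to 16 when each library was left out, with the 16 found without Ly6D-Gfra2- replicate 3.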
